A study of Mus musculus with 2 samples.

Results

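The genes of the phagocyte NADPH oxidase were followed through mouse bone marrow cultures grown with or without heme. The set was the 5 listed subunit genes Cybb, Cyba, Ncf1, Ncf4 and Rac2, all found among the 26124 genes of both count matrices. They were taken from the list by name. Their levels were examined by library, by culture day and in cells gated on Camp, Marco or Ccr7.

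The cultures held lineage-depleted bone marrow progenitors of C57BL/6 mice aged 8 to 10 weeks, grown in medium with GM-CSF (20 ng/ml). GM-CSF is a cytokine under which such progenitors yield granulocytes, macrophages and dendritic cells. On day 3 the heme group received 300 µM heme-albumin and the control group received albumin. Each group was 1 single-cell library, in which 5 cultures had been combined after labelling with hashtag antibodies named for days 0, 3, 4, 5 and 7. The number of mice behind a culture was not found in the labels. The design text counts exposures of 0, 24, 72 and 96 h, which differs from the harvest days of the labels for day 5, and culture days are used here. With 1 culture per group and day there was no replicate and no test was possible. Intervals are exact 95% intervals, and they cover counting error only.

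The phagocyte oxidase moves electrons from NADPH across the membrane onto oxygen and so makes superoxide, the source of the oxidative burst with which neutrophils and macrophages kill microbes. Its membrane core is a flavocytochrome of NOX2, the catalytic subunit encoded by Cybb, and p22phox, the partner encoded by Cyba that keeps NOX2 stable. At rest the organizer p47phox (Ncf1) and p40phox (Ncf4) stay in the cytosol, and they join the core together with the small GTPase Rac2 once the cell is stimulated. NOX2 itself carries heme groups. Loss of several of these subunits causes chronic granulomatous disease.

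In the GENCODE M21 annotation of mouse build GRCm38, Cybb lies on the minus strand of chromosome X, from 9435252 to 9487771. Cyba (minus strand of chromosome 8, 122424776 to 122432930) and Ncf1 (minus strand of chromosome 5, 134220053 to 134229625) each overlap a gene annotated on the opposite strand, Gm20388 and Gtf2ird2. Ncf4 (plus strand, 78244801 to 78262580) and Rac2 (minus strand, 78559167 to 78572783) both lie on chromosome 15. The library method reads the 3′ ends of transcripts, so isoforms were not told apart.

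Promoter sequences are shown for Cybb and Ncf1, the pair that stood higher in the heme library already on day 3, and for Cyba, which did not. Each is the 150 bases before the annotated start, from RefSeq on GRCm38.p6, read 5′ to 3′ on the gene's own minus strand at chrX:9469325-9469474, chr5:134229626-134229775 and chr8:122432941-122433090. Capitals mark, on either strand, the letters CCAAT, or GAAA followed by any 2 bases and GAAA again, a core of interferon-factor sites called the GAAA repeat here. The RefSeq start of Cybb, 9469324, lies inside the GENCODE span given above, which includes a transcript that starts further upstream. The table used holds no entry for Ncf4 and Rac2.
Cybb: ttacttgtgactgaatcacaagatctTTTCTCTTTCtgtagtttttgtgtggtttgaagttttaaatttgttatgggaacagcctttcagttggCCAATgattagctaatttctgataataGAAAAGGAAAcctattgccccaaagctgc
Ncf1: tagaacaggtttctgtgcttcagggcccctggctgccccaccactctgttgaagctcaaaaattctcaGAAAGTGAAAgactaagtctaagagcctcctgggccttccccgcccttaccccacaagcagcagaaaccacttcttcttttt
Cyba: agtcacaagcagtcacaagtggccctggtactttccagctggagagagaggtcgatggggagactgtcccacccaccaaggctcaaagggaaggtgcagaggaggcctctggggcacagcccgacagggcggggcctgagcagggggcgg
The GAAA repeat occurs at 2 places in the Cybb sequence, from 124 to 115 and from 29 to 20 bases before the start, and at 1 place in the Ncf1 sequence, from 82 to 73 bases before it. Of 32851 mouse promoter windows of this length, 1.59% hold it. CCAAT occurs in the Cybb sequence from 56 to 52 bases before the start, and 24.5% of the windows hold it. The letters GAGGAA, which the factor PU.1 can bind, occur in 14.5% of the windows and in none of these 3. The matches describe letters only, since no binding was measured.

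Of 12050 control and 14164 heme barcodes with a single hashtag, 9251 and 9690 passed the limits on detected genes, mitochondrial and ribosomal UMIs. The kept cultures held between 358 and 2564 cells. UMIs are unique molecular identifiers, each of which marks 1 captured transcript. The upper limit of 5000 genes removed 33.9% of the heme cells on day 3 but 8.34% of the control cells. Both libraries held 112 barcodes in common, 29 of them among kept cells, and without these the relative log2 ratio of Cybb on day 3 was 0.69 in place of 0.70. Gclm, a glutathione synthesis gene induced by heme, had a heme to control ratio of 0.972 on day 3 and 4.54 on day 4. Hmox1, the heme oxygenase gene, was already higher in the heme library on day 0 (138 against 3.45 CPM) and day 3 (161 against 37.5 CPM), and was at 1399 against 60.0 CPM on day 4.

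Levels are given as CPM, counts per 1000000, the UMIs of a gene divided by all gene UMIs of the summed cells. Cybb was at 111 CPM (98.1 to 126) in the control culture of day 0 and at 126 CPM (119 to 133) in that of the heme library. By day 3 it had reached 972 CPM in the control and 1873 CPM in the heme library, 8.74 and 14.9 times the day 0 level. Both cultures were highest on day 4, with 1428 and 2707 CPM. Cybb was later at 948 and 754 CPM in the control cultures of days 5 and 7, and at 1450 and 1688 CPM in the heme cultures. On every day from 3 to 7 the heme culture had more Cybb than the control culture.

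The partner Cyba ran the other way. Its control levels were 584, 2169, 2664, 2440 and 1928 CPM on days 0, 3, 4, 5 and 7, and its heme levels were 311, 1824, 1900, 1774 and 1593 CPM. The heme culture was the lower one on each of the 5 days, by the widest margin on day 0, when its level was 0.532 (0.499 to 0.568) of the control's. Cells removed by the ribosomal limit were 74.9% of all control cells and 24.9% of all heme cells on that day, and their part in the day 0 difference was not tested.

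Ncf1, the organizer, went from 89.2 CPM on day 0 to 387, 463, 332 and 215 CPM in the control cultures of days 3, 4, 5 and 7. The heme library had 134, 728, 736, 371 and 265 CPM. The heme library was thus higher on each day, by less on days 5 and 7 than on days 3 and 4, though without the upper gene limit it was lower on day 5 (266 against 289 CPM).

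Ncf4, the p40phox gene, stood at 56.0, 224, 247, 204 and 125 CPM in the control cultures, in order of day, and at 44.0, 215, 208, 126 and 95.8 CPM in the heme cultures. The heme culture was the lower one on each day. The intervals of the 2 levels overlapped on days 0 and 3 and lay apart from day 4 on. The heme to control ratio was nonetheless below 1 within its interval on day 0 (0.784, 0.644 to 0.961) and day 3 (0.958, 0.926 to 0.991). Rac2, the GTPase, changed least between days 0 and 3, with 382, 539, 596, 493 and 381 CPM in the control and 286, 550, 524, 383 and 261 CPM in the heme cultures. Between days 4 and 7 Rac2 came down to 0.640 of its level in the control and 0.498 in the heme cultures, and Ncf4 to 0.507 and 0.461.

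**Figure D1:**
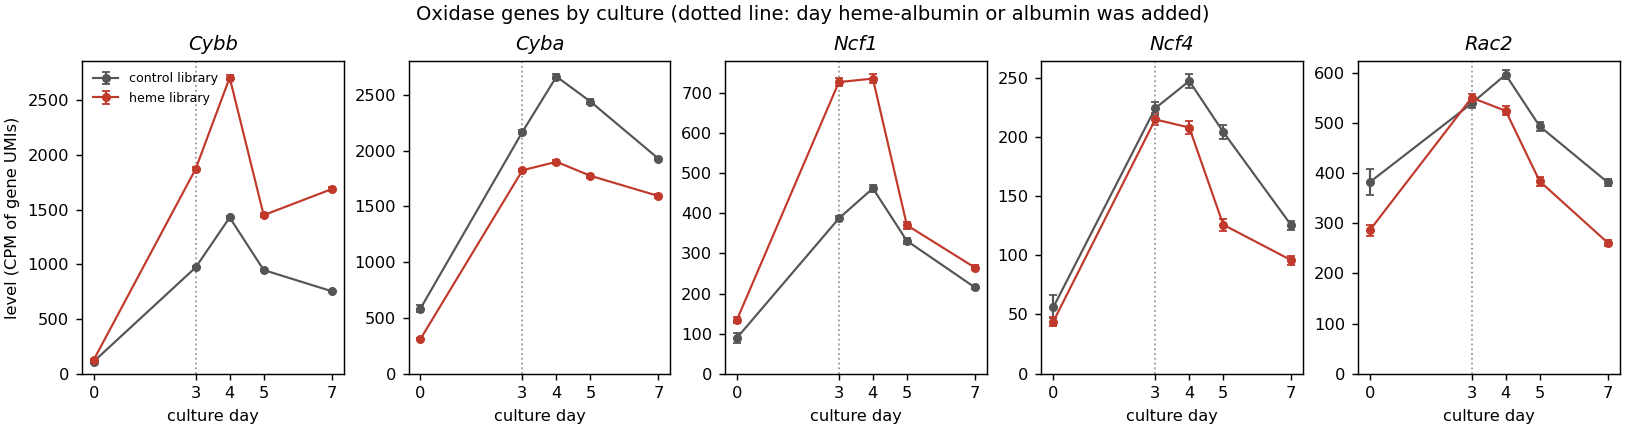
Level of each oxidase gene (CPM of gene UMIs, linear axes starting at 0) by culture day, in the control library (grey) and the heme library (red), 1 culture per point, with exact 95% Poisson intervals as bars. Cybb is higher in heme from day 3 on (1873 against 972 CPM on day 3), whereas Cyba is lower in heme on every day.

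Heme and control were then compared gene by gene on each day. Because the median ratio of all tested genes was not 1 (it lay between 0.21 and 0.30 on the log2 scale), a relative ratio was also taken, the ratio divided by that median. Genes with at least 10 CPM on average were tested, and a gene was called when its relative ratio was at least 1.5-fold higher or lower.

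On day 3, which the design text counts as 0 h of exposure, Cybb had a heme to control ratio of 1.93 and Ncf1 of 1.88, relative ratios of 1.62 and 1.58. Those 2 of 5 genes were called higher, where 7.71% of 7423 genes were, and none of the 5 was called lower, where 13.9% were. Cyba (0.841), Ncf4 (0.958) and Rac2 (1.02) had ratios near or below 1. So the members already differed between the libraries at that time, in opposite directions, and differences of later days cannot be told apart from a difference between the libraries. Splitting that day's cells by detected genes per cell, chosen after the values were seen, gave a heme Cybb level above the control one in each of 4 ranges (2975 against 1689 CPM in cells with 500 to 3000 genes, 1002 against 515 CPM in those with 5000 to 6000). In cells kept without the upper gene limit, the day 3 ratios were 1.47 for Cybb and 1.54 for Ncf1, relative ratios of 1.18 and 1.23, and neither was then called, while Cyba at 0.624 was called lower. The cells with 5000 to 6000 genes numbered 755 in the heme and 157 in the control culture, and Camp made up 0.107% and 0.0414% of their UMIs, against 1.48% and 1.45% in cells with under 3000 genes.

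On day 4 the Cybb ratio was 1.90 and the relative ratio 1.62, so Cybb was called higher, as were 10.4% of all genes. Ncf1 (1.59), Ncf4 (0.841) and Rac2 (0.879) were not called. Cyba, at a ratio of 0.713, was called lower, as were 17.8% of all genes. Without the upper gene limit Cybb had a relative ratio of 1.39 and was no longer called, while Ncf4 (0.635) and Rac2 (0.651) joined Cyba below the line.

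On day 5 Cybb had a ratio of 1.53 and no call, and Ncf1 had a ratio of 1.12, or 0.920 without the upper gene limit. None of the 5 was higher, against 10.7% of all genes, and 2 were lower, Cyba (0.727) and Ncf4 (0.616), against 15.8% of all genes. Without the upper gene limit Rac2 was lower in place of Cyba, with relative ratios of 0.582 for Rac2 and 0.724 for Cyba.

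On day 7 the Cybb ratio was 2.24 (relative ratio 1.87), higher than for 92.6% of the genes, and Cybb was 1 member called higher where 15.4% of all genes were. Ncf4 (0.765) and Rac2 (0.684) were called lower, where 18.9% of all genes were. Ncf1 had a ratio of 1.23 and a relative ratio of 1.03, and Cyba a ratio of 0.826, and neither was called. On day 0, where 11.3% of genes were called higher and 14.8% lower, Cyba, Ncf4 and Rac2 were called lower and none of the 5 higher.

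Divided by the day 3 ratio, the heme to control ratio of Cybb was 0.984 (0.965 to 1.00) for day 4, then 0.794 (0.776 to 0.811) for day 5 and 1.16 (1.14 to 1.19) for day 7. For Cyba it was 0.848, 0.865 and 0.982, and for Ncf1 0.848, 0.595 and 0.655. Rac2 gave 0.861, 0.762 and 0.671, and Ncf4 gave 0.878, 0.643 and 0.798. Set against their own day 3 difference, the kept cells exposed to heme thus had less Cyba, Ncf1, Ncf4 and Rac2 than the controls on each later day. Cybb was above 1 on day 7 only. For Cybb and Cyba this rests on the upper gene limit. Without it the plain Cybb ratios were 1.47, 1.69, 1.47 and 2.22 from day 3 to day 7, so that day 4 also lay above day 3. The plain Cyba ratios were then 0.780, 0.697, 0.827 and 0.872, so that days 5 and 7 lay above day 3. Over the 5 genes the median relative log2 ratio was -0.22, -0.42, -0.57 and -0.53 by day 3, 4, 5 and 7, where the median of all genes is 0.

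**Figure D2:**
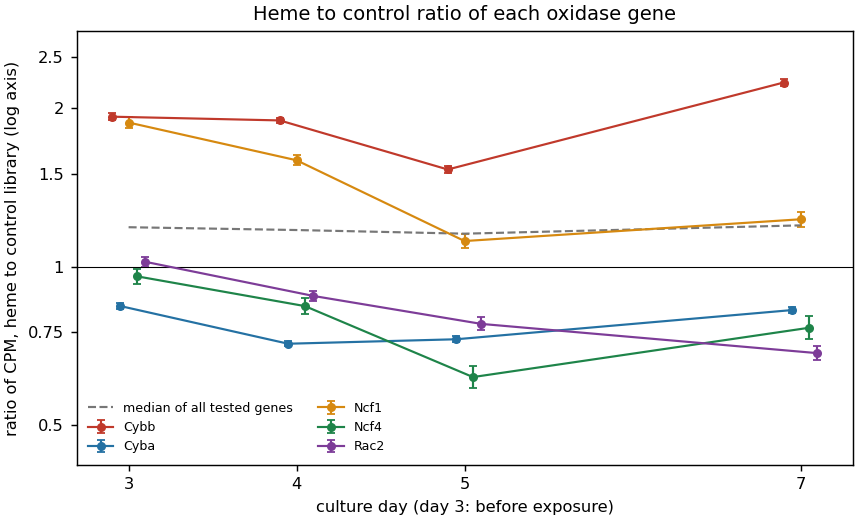
Ratio of CPM in the heme to the control library (log axis) for each oxidase gene on days 3, 4, 5 and 7, with exact 95% intervals, and the median ratio of all tested genes as a dashed line. Cybb and Ncf1 already stand at 1.93 and 1.88 on day 3, Ncf1 comes down to the dashed line by day 5, and Cyba, Ncf4 and Rac2 lie below it on all 4 days.

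A few other genes of oxidases were read beside the set. Cybc1, whose product helps the flavocytochrome to form, had a relative log2 ratio of 0.15 on day 7. Rac1, the more widely expressed relative of Rac2, had -0.77 and was lower. Genes of other oxidases were at or near 0: Noxo1 had 78 and 85 UMIs in the control and heme libraries, Nox1 had 36 and 65, and Nox3, Duox1 and Duox2 had none in either, which allows up to 0.0259 CPM in the control and 0.0257 CPM in the heme library.

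The cells of each culture were then split by gates that hold each cell once. Camp-high cells, with at least 0.2% of their UMIs from Camp, a gene of the secondary granules that neutrophil precursors fill, accounted for 37.1%, 51.8%, 24.2% and 1.01% of control cells by day 3, 4, 5 and 7. In the heme library they accounted for 46.8%, 61.4%, 14.2% and 8.05%. Marco cells, with at least 3 UMIs of this scavenger receptor of macrophages, numbered 718 (35.7%) in the heme culture of day 7 and at most 12 in a control culture. Ccr7 cells, with at least 3 UMIs of the homing receptor of mature dendritic cells, accounted for 5.50% and 15.3% of control cells by day 5 and 7, against 4.72% and 1.84% of heme cells. The remaining cells were split at 2% of UMIs from S100a8, a neutrophil gene, into S100a8-high cells and the rest. Groups of at least 50 cells are described. Of other markers, Ngp was at 16697 CPM in control Camp-high cells of day 4 and Fscn1 at 453 CPM in control Ccr7 cells of day 7. In Marco cells the macrophage genes went apart, with Mrc1 at 423 CPM and C1qa at 1.85 CPM. Adgre1 and Spic, also listed as macrophage markers, are not reported here, so Marco cells are named by their gate.

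Camp-high cells carried the most Cybb, Ncf1, Ncf4 and Rac2 in every culture where they could be measured. On day 4 they had 2265 CPM of Cybb in the control and 3489 CPM in the heme library, against 1252 and 2265 CPM in S100a8-high cells and 750 and 1399 CPM in the rest. Ncf1 followed the same order on that day, with 738, 564 and 178 CPM in the 3 control groups and 944, 773 and 243 CPM in the heme groups. Rac2 had 865, 731 and 320.0 CPM in the control groups and 645, 565 and 249 CPM in the heme groups. Levels of the oxidase genes on day 4 were thus graded, from Camp-high over S100a8-high cells to the rest, in both libraries. Cyba was the flattest, with 3085, 2573 and 2361 CPM in the control groups. In the control culture of day 5, S100a8-high cells had more Cyba (3185 CPM) than Camp-high cells (3081 CPM). In the heme library, S100a8-high cells had less Cyba than the rest on day 3 (1559 against 1705 CPM) and day 7 (1545 against 1656 CPM). Camp-high cells gave 65.1% of all Cybb UMIs of the control culture on day 4, and 72.8% in the heme culture.

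Heme to control differences were also present within Camp-high cells. On day 3 the ratios were 1.66 for Cybb, 1.63 for Ncf1, 0.792 for Cyba, 0.867 for Ncf4 and 0.909 for Rac2. On day 4 they were 1.54, 1.28, 0.670, 0.739 and 0.745 in the same order. On day 5 they were 1.33 for Cybb, 0.847 for Ncf1, 0.669 for Cyba, 0.539 for Ncf4 and 0.709 for Rac2. Cybb thus stayed above the control level in neutrophil precursors on all 3 days, while the others were lower or became so by day 5. Relative to all genes in these cells, none of the 5 was called higher on days 3, 4 and 5, where 9.29%, 8.00% and 11.4% of genes were. Cyba was called lower on day 3, where 15.2% of genes were, and Cyba, Ncf4 and Rac2 were called lower on days 4 and 5, where 13.0% and 13.5% of genes were. The median relative log2 ratio of the 5 was -0.50, -0.82 and -0.80. S100a8-high cells gave Cybb ratios of 2.08, 1.81, 1.31 and 1.66 from day 3 to day 7, and the rest gave 1.72, 1.87, 1.77 and 1.72. Only 26 control cells of day 7 were Camp-high, too few for a ratio, and the 162 heme cells of that day had 3097 CPM of Cybb.

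Part of the culture ratios followed the shares of the gates. Weighted by the control culture's UMI shares of the gates measured in both libraries, the day 4 ratio of Cybb was 1.65 in place of 1.91, and that of Ncf1 was 1.31 in place of 1.61. With control levels and heme shares, the ratio was 1.19 for Cybb and 1.24 for Ncf1. On day 5, when shares alone gave 1.22 for Ncf1, the weighted ratios were 1.01 for Ncf1, 0.576 for Ncf4 and 0.696 for Rac2. For Cybb, shares alone gave 1.07 on day 5. For day 7 the weighting covers S100a8-high cells and the rest only, with ratios of 1.72 in place of 1.75 for Cybb and 0.977 in place of 1.17 for Ncf1. It leaves out Marco cells, which held 44.1% of the heme and 0.586% of the control UMIs, and Ccr7 cells, with 2.01% and 15.9%. Marco and Camp-high cells could not be measured in the control nor Ccr7 cells in the heme culture.

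Marco cells of the heme culture had 1768 CPM of Cybb, 1559 of Cyba, 214 of Ncf1, 79.5 of Ncf4 and 190 of Rac2 on day 7. The rest of that culture had 1474, 1656, 210, 85.2 and 230 CPM. Marco cells thus had more Cybb than the rest. They had less of each of the 5 genes than the Camp-high cells beside them, which had 3097, 1753, 698, 238 and 684 CPM. The Marco gate is a count of UMIs, so it depends on depth. The median depth was 17128 UMIs in Marco cells and 12616 in the rest, and its part in this split was not tested. The rest of the control culture of day 7 had 856 CPM of Cybb and 416 of Rac2, so that the heme to control ratio in these ungated cells was 1.72 for Cybb and 0.553 for Rac2.

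Cybb was low in Ccr7 cells. It was at 48.3 CPM (102 UMIs in 129 cells) in the control Ccr7 cells of day 5, at 91.7 CPM in those of day 7 and at 116 CPM in the heme Ccr7 cells of day 5. The rest of the same cultures had 627, 856 and 1114 CPM. Cyba was at 1096, 1132 and 923 CPM in the 3 groups of Ccr7 cells, against 2225, 2067 and 1805 CPM in the rest. Ncf1 was at 202, 175 and 319 CPM, against 158, 215 and 213 CPM. Ncf4 was at 115, 89.9 and 57.2 CPM, against 166, 130 and 101 CPM. Rac2 was at 132, 179 and 159 CPM, against 381, 416 and 259 CPM. Mature dendritic-type cells thus held transcripts of the partner and the cytosolic subunits, though Cyba, Ncf4 and Rac2 were also below the rest in all 3 groups. The catalytic subunit was lowest against the rest, at 0.0769, 0.107 and 0.104 of its level there. Over all cells with a single hashtag, with no limit on genes, mitochondrial or ribosomal UMIs, Cybb in these cells was at 80.1, 89.4 and 220.5 CPM, so that its level on day 5 was over 1.5 times that of the kept cells. With at least 1 Ccr7 UMI in place of 3 it was at 158, 185 and 380 CPM, and with at least 5 at 45.2, 84.0 and 120 CPM.

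Free RNA can put UMIs of abundant genes into any droplet, and it was gauged with 6 neutrophil genes (S100a8, S100a9, Camp, Ltf, Ngp and Lcn2) that mature dendritic cells should lack. In the Ccr7 cells these stood at a median of 2.36%, 1.29% and 2.24% of their level over the whole library, in the control of day 5, the control of day 7 and the heme library of day 5. The highest of the 6 were at 3.17%, 1.51% and 3.12% in the same order. Camp is bounded by the gate itself. Cybb stood at 4.88% (3.97% to 5.92%), 9.26% (8.45% to 10.1%) and 6.45% (5.54% to 7.46%) of its library level, above all 6 genes in each group. Cyba stood at 48.9%, 50.5% and 56.0%, and Ncf1 at 59.8%, 51.9% and 62.4%. The same was read in 175 heme cells of day 0 with at least 5 UMIs of the erythroid genes Klf1 and Car1. Cybb stood there at 2.66% of its library level (48.1 CPM), within the 1.72% to 2.88% of the 6 genes. Cyba (7.34%), Ncf1 (6.04%) and Ncf4 (3.45%, 1.97% to 5.60%) stood above all 6, as did Rac2 (23.2%), which is not confined to phagocytes. A level above the 6 genes thus also occurred for members in cells that should lack the oxidase.

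**Figure D3:**
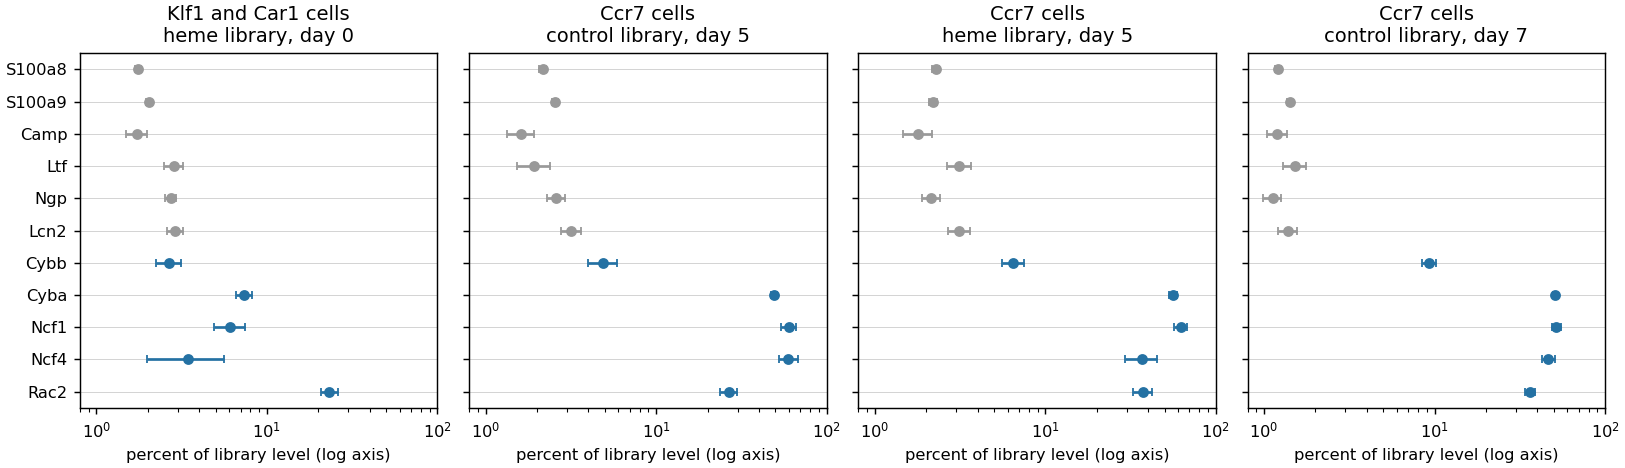
Level of 6 neutrophil genes (grey) and the 5 oxidase genes (blue) as percent of the gene's level over all kept cells of the library (log axis), with exact 95% Poisson intervals, in erythroid cells of day 0 and in 3 groups of Ccr7 cells. Cybb lies with the neutrophil genes in the erythroid cells (2.66%) and above all 6 of them in Ccr7 cells (4.88% to 9.26%), where Cyba and Ncf1 lie between 48.9% and 62.4%. In the erythroid cells Cyba, Ncf1, Ncf4 and Rac2 lie above all 6.

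**Figure D4:**
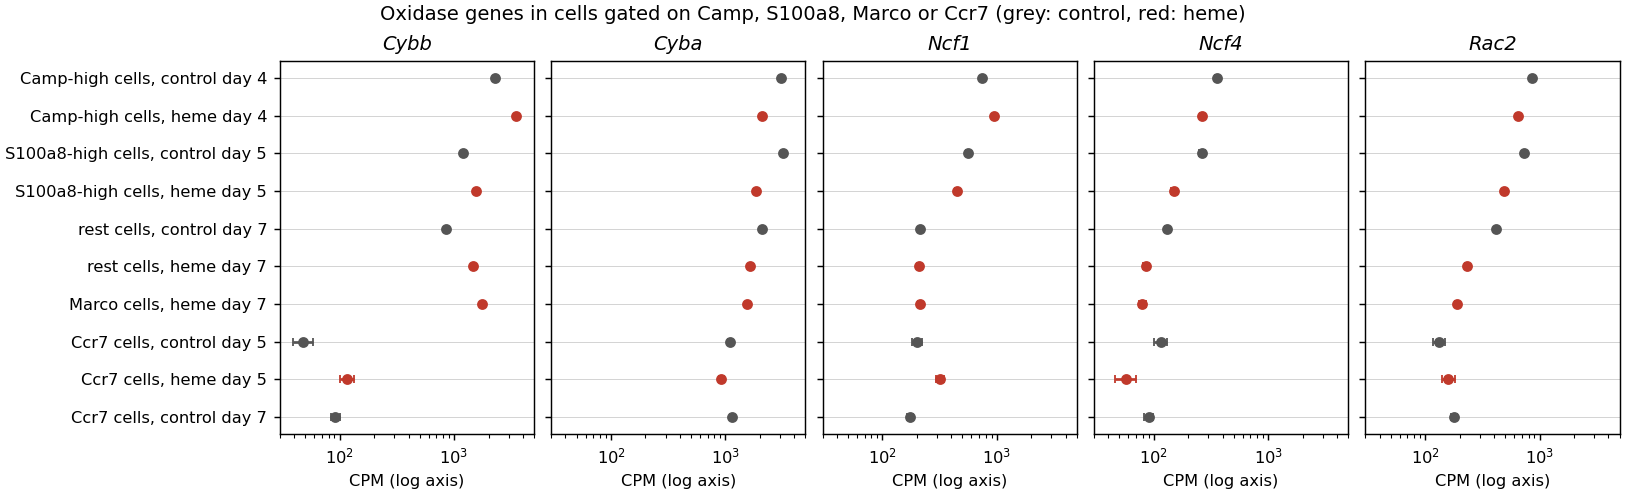
Level (CPM, log axis) of each oxidase gene in gated groups of cells, control in grey and heme in red, with exact 95% Poisson intervals. Cybb ranges from 48.3 CPM in control Ccr7 cells of day 5 to 3489 CPM in heme Camp-high cells of day 4, whereas Cyba spans 923 to 3185 CPM in these groups.

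To compare cells of unlike depth, each was thinned to 5000 UMIs, and shallower cells were left out. Camp-high control cells of day 4 then had a median of 11 Cybb UMIs, with the lowest and highest deciles at 5 and 19, and heme cells had 18, with 10 and 27. Cyba went from a median of 15 to 10. Marco cells had a median of 8 Cybb UMIs, and the Ccr7 cells of each group had a median of 0. The difference within Camp-high cells was thus a shift of the whole spread of cells.

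A Cybb UMI was found in 100% of 874 control and 99.8% of 1264 heme Camp-high cells of day 4, and in 98.9% of 710 Marco cells. Cybb was found in 14.7% (9.11% to 22.0%) of control Ccr7 cells of day 5, 20.8% (16.8% to 25.2%) of those of day 7 and 40.0% (29.8% to 50.9%) of heme Ccr7 cells of day 5, beside 23.2% (39 of 168) of the erythroid cells. The erythroid cells come from the heme library, whose Cybb level of 1803 CPM over all kept cells was above the 990 CPM of the control library, so their share sets no background for the control cells. Median depths before thinning were 15310, 12221 and 16616 UMIs in the Ccr7 groups and 18359 UMIs in the erythroid cells. Before thinning Cybb was found in 37.2%, 34.9% and 75.6% of the Ccr7 cells and in 52.0% of the erythroid cells. Cyba was found in 99.0% of control Ccr7 cells of day 7 against 39.9% of the erythroid cells, and Ncf1 in 54.5% against 17.9%.

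Cells with a UMI of all 5 genes at this depth were most frequent where Camp was high. Among Camp-high cells of day 3 their share was 74.0% (control) and 74.2% (heme library), then 76.0% against 66.1% a day later, and 68.0% against 49.2% for day 5. S100a8-high cells had all 5 in 64.0% and 54.1% on day 4, and the rest in 13.5% and 15.8%. Marco cells had all 5 in 12.4% (10.1% to 15.0%), and control Ccr7 cells of day 7 in 3.90% (2.20% to 6.34%). Ncf4 was among the genes missed most, with a UMI in 82.2% of control and 70.9% of heme Camp-high cells on day 4 and in 33.8% of Marco cells.

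**Figure D5:**
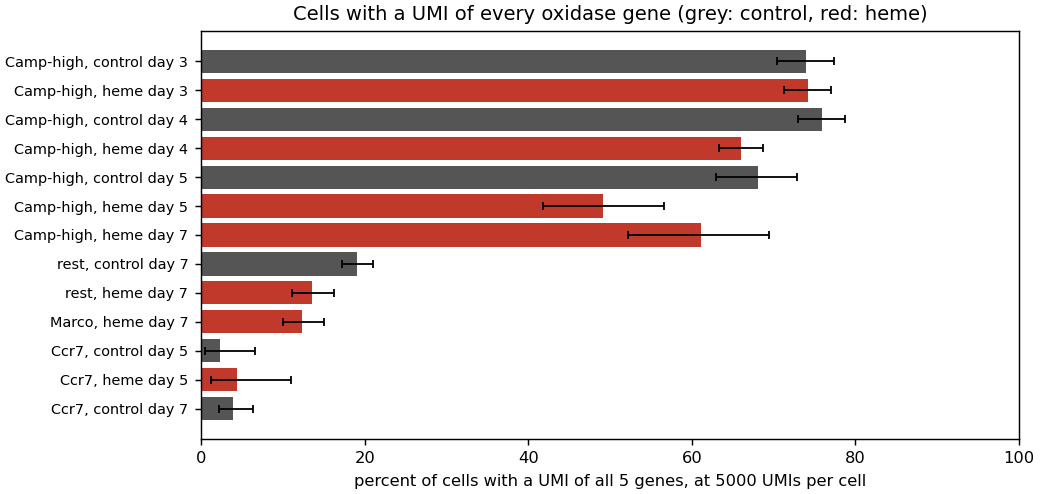
Percent of cells with a UMI of all 5 oxidase genes after thinning to 5000 UMIs, by gate, library and day, with exact 95% binomial intervals and bars from 0. The share is 49.2% to 76.0% in Camp-high cells, 12.4% in Marco cells and below 5% in Ccr7 cells.

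Genes that act on the assembled oxidase were looked up in a list of 20 regulators, all of them tested. On day 7, 5 were called higher and 2 lower (15.4% and 18.9% of all genes), and the median relative log2 ratio was 0.03. The highest were Pla2g4a, the cytosolic phospholipase that frees arachidonic acid (1.46), and Hvcn1, the proton channel that balances the charge moved by the oxidase (0.92). The lowest were Prkcb (-0.84) and Prkcd (-0.63), kinases that phosphorylate p47phox. On day 3, 2 of the 20 were called higher and none lower (7.71% and 13.9% of all genes). The 2 were Prkcb (0.81), which was thus higher before exposure and lower on day 7, and Mapk14 (0.63).

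Of 10 transcription factors that act on these genes or in phagocyte development, 8 were tested on day 7, with 1 higher and 1 lower (15.4% and 18.9% of all genes). Cebpe, the factor of late granulocyte precursors, had a relative log2 ratio of 0.75 and Cebpa one of 0.31. Irf8, needed for monocytes and dendritic cells, had -1.57, with 144 CPM in the control and 58.1 CPM in the heme culture, and Spi1, which encodes PU.1, had -0.40. In control Ccr7 cells of day 7 Irf8 was at 583 CPM and Spi1 at 208 CPM, against 1.59 and 446 CPM in control Camp-high cells of day 4.

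Enzymes that use or remove superoxide and peroxide were counted next. Of 7 listed, 6 were tested on day 7, with 4 higher and 1 lower (15.4% and 18.9% of all genes). Catalase (Cat), which splits hydrogen peroxide, had a relative log2 ratio of 2.36, from 60.8 to 372 CPM. Mpo, the myeloperoxidase of primary granules, had 1.76 at low levels (9.48 and 38.5 CPM), after being called lower on day 3 (-0.74) and day 4 (-1.97). Gpx1, a glutathione peroxidase, had -2.09, from 1254 to 352 CPM, and Sod2, the mitochondrial superoxide dismutase, had 0.32. On day 3 Cat already had a ratio of 1.63.

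The genes most like each member were ranked by Pearson's r of log2 levels (10 CPM added) over 29 groups of library, day and gate, among 2779 genes. These groups share libraries and cultures, and r is a description. Cybb was closest to Glrx (0.973), Clec4a2 (0.962) and Itgam (0.955), and Ncf1 to Ceacam1 (0.947), Mapk13 (0.943) and Cd177 (0.940). Cyba was closest to Prdx5 (0.903), Msrb1 (0.897) and Slfn2 (0.895), and Ncf4 to Rgs19 (0.926), Chil3 (0.918) and Prdx5 (0.908). Rac2 was closest to Cdkn2d (0.954), Cklf (0.952) and Gmfg (0.945). No member was among the 3 genes most like another: the closest pair was Ncf4 and Rac2 (0.856, the 16th gene for Ncf4), and Cybb and its partner Cyba had an r of 0.722.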

How the data were processed

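Single-cell RNA was measured in 2 libraries of the 10x 3′ method, 1 per group, each a pool of 5 hashtagged cultures. The values deposited are UMI counts, not normalized, for each gene in each barcode, which the authors made with Cell Ranger (4.0.0 in the submitters' processing notes, 5.0.0 in the matrix headers) on build GRCm38.p6. Whether counting used strand is not given in the sources used here. The deposited hashtag calls gave each barcode's culture day. Barcodes called Singlet were used, which removed doublets of different hashtags only, and no doublet caller was run. Kept cells had 500 to 5000 genes, under 15% mitochondrial and under 30% ribosomal UMIs.

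UMIs were summed per culture, or per culture and gate, and divided by the gene total (CPM). A relative ratio is the heme to control ratio divided by the median ratio of genes with at least 10 CPM on average, and calls needed 1.5-fold. Intervals are exact Poisson, conditional Poisson or binomial (Clopper-Pearson) at 95%. PCR copies are removed by UMIs, and intervals cover counting error only. The ratio script was tested on simulated data. Python 3.11.15, scipy 1.17.1 and R 4.3.3 with edgeR 4.0.16 and DESeq2 1.42.0, for scaling factors only, were used. A culture held 2319558 to 32835088 UMIs, with a median of 4827 to 15092 per kept cell.

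The members, gene lists and gates were chosen with earlier results of these data known. All 5 members were named. Of regulators, transcription factors and enzymes, counts were given with the 2 highest and 2 lowest genes of day 7, and other values of listed genes were named after they were seen. The erythroid cells were defined by Klf1 and Car1 after values were seen. Some listed genes are not reported here. Alternatives covered cells, gates, weights, scaling, filters and division by the day 3 ratio.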

Additional observations from a re-analysis of the deposited data

Results flagged for a closer look

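Barcodes without a hashtag call enter no comparison by day, since their culture is unknown. With at least 500 genes they numbered 409 in the control and 930 in the heme library. Cybb was at 159 CPM in the control and 606 CPM in the heme barcodes, a ratio of 3.81 (3.45 to 4.22), and Ncf1 was at 61.1 and 232 CPM, a ratio of 3.79 (3.22 to 4.48). Both were singled out because these barcodes lie outside the main measurement and the heme level was above the control one. Cyba had a ratio of 1.11, Ncf4 of 1.37 and Rac2 of 1.35 in the same barcodes. The days the barcodes come from may differ between the libraries, and this was not tested.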

How the results depend on the processing

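No paired analysis was possible because each group holds 1 library, and for the same reason no replicate could be left out. The median relative log2 ratio of the 5 genes on days 3, 4, 5 and 7 (-0.22, -0.42, -0.57 and -0.53 as reported) was -0.50, -0.62, -0.46 and -0.43 over all single-hashtag barcodes, and -0.50, -0.62, -0.47 and -0.46 with no upper limit on genes. With no centring on the median of all genes it was 0.030, -0.19, -0.36 and -0.28, so that day 3, where Rac2 is the median gene, turned positive. Without a filter on low counts it was -0.32, -0.51, -0.66 and -0.56. With TMM factors it was -0.30, -0.47 and -0.65 on days 3, 4 and 5, with DESeq2 size factors -0.51 on day 7, and with the mean of single-cell CPM -0.28, -0.52 and -0.61 on days 3, 4 and 7. Divided by the day 3 ratio it was -0.20, -0.35 and -0.34 on days 4, 5 and 7, Cybb turned from 0.69 to -0.0059 on day 4 and from 0.41 to -0.29 on day 5, and Ncf1 from 0.44 to -0.22 on day 4. In Camp-high cells (-0.50, -0.82 and -0.80 on days 3, 4 and 5) it was -0.14, -0.42 and -0.50 with no centring, and -0.58 on day 3 over all single-hashtag barcodes. The other 24 values of these medians stayed within their counting interval, those without ribosomal and mitochondrial genes and those without shared barcodes among them. Of the values of single genes, 237 stayed within their interval, 277 moved past it and 1, Cybb on day 4 divided by the day 3 ratio, reversed. A change of sign was counted as reversed only where the reported value had passed the 1.5-fold call. Other changes of sign were counted with the rest. With no centring Ncf1 turned from -0.05 to 0.16 on day 5, and from -0.05 to 0.35 in Camp-high cells on day 4. The Ncf1 ratio of day 7, 0.04 on the log2 scale, changed sign under 4 of 10 settings. The causes of these changes were not tested. Counting error is small at this depth except in smaller groups. These include the Ccr7 and erythroid cells, the control cells of day 0 and the 80 control S100a8-high cells of day 7. Ncf4 in the last group was at 224 CPM (180 to 276). Variation between cultures cannot be seen with 1 library per group. Camp-high cells of day 7 gave no ratio, with 26 control cells.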
